A study of Bos indicus with 9 samples.

Results

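Macrophages and other myeloid cells of the corpus luteum were followed through 48 genes chosen as their markers, effector molecules and regulators. The list was chosen with earlier results of these data known. The array's probe table gave 39 of them as the single symbol of at least 1 probe set, out of 9145 genes named in that way. The other 9 (ITGAX, LYZ, CSF2RA, CD163, MRC1, MARCO, CCR1, CX3CR1 and SPI1) were not analysed here. For each gene the probe set with the highest mean over all arrays was used. The 39 genes had 57 probe sets in all, and 11 genes had more than 1.

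The samples were corpora lutea of Nelore crossbred cows (Bos indicus, 2 to 5 years old), 1 Affymetrix array per animal and 3 animals per group. Superovulated cows were given equine chorionic gonadotropin (eCG) at 2000 IU on day 4 of the protocol, and stimulated cows at 400 IU on day 8. Control cows received no eCG. Ovulation was synchronised in all 3 groups with progesterone devices and estradiol benzoate, and all glands were taken at slaughter on day 6 after ovulation. eCG comes from the placenta of the mare, and in cattle it has the activity of both follicle-stimulating and luteinising hormone. Dose and day differed together between the treated groups, so their effects cannot be told apart. The labels do not say whether a cow with several corpora lutea gave 1 of them or a pool.

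Macrophages enter the corpus luteum as it forms from the ruptured follicle, where they clear debris, support the growth of vessels and later take part in the removal of the gland. They bind antibody-coated material through Fc receptors, use the complement protein C1q as a bridge to dying cells, adhere through beta-2 integrins, and digest microbes with lysozyme. Their growth and survival depend on colony-stimulating factor 1 and its receptor. In whole tissue, more myeloid cells and more RNA of these genes per cell cannot be told apart.

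The arrays resembled each other, with correlations of signal across probe sets of 0.986 to 0.994. Signals are read as log2 values, so a difference of 1 stands for a doubling, and differences are written as the first group minus the second. The tissue label was borne out by its defining markers. STAR, which carries cholesterol into mitochondria, had signals of 14.55 to 14.81 in superovulated, 14.76 to 14.80 in stimulated and 14.63 to 14.84 in control animals. Among the defining macrophage markers, CD68, CD14 and CSF1R were measured, and their values are given below.

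No myeloid gene passed the limma test at an adjusted p under 0.05 (Benjamini-Hochberg over 23971 probe sets) in any comparison, nor in the moderated F test over the 3 groups, where the smallest adjusted p among them was 0.214. The background was low too. The test called 0.00417% of all probe sets in stimulated against control, 0% in superovulated against control and 0.00417% in superovulated against stimulated. At an unadjusted p under 0.05, 13 of the 39 genes were found in the F test, against 7.51% of all genes. All differences below are therefore descriptions of these 9 animals, given with their standard error (SE). Since the genes were chosen with earlier results of these data known, their shares beside those of all genes are descriptions too.

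**Figure D1:**
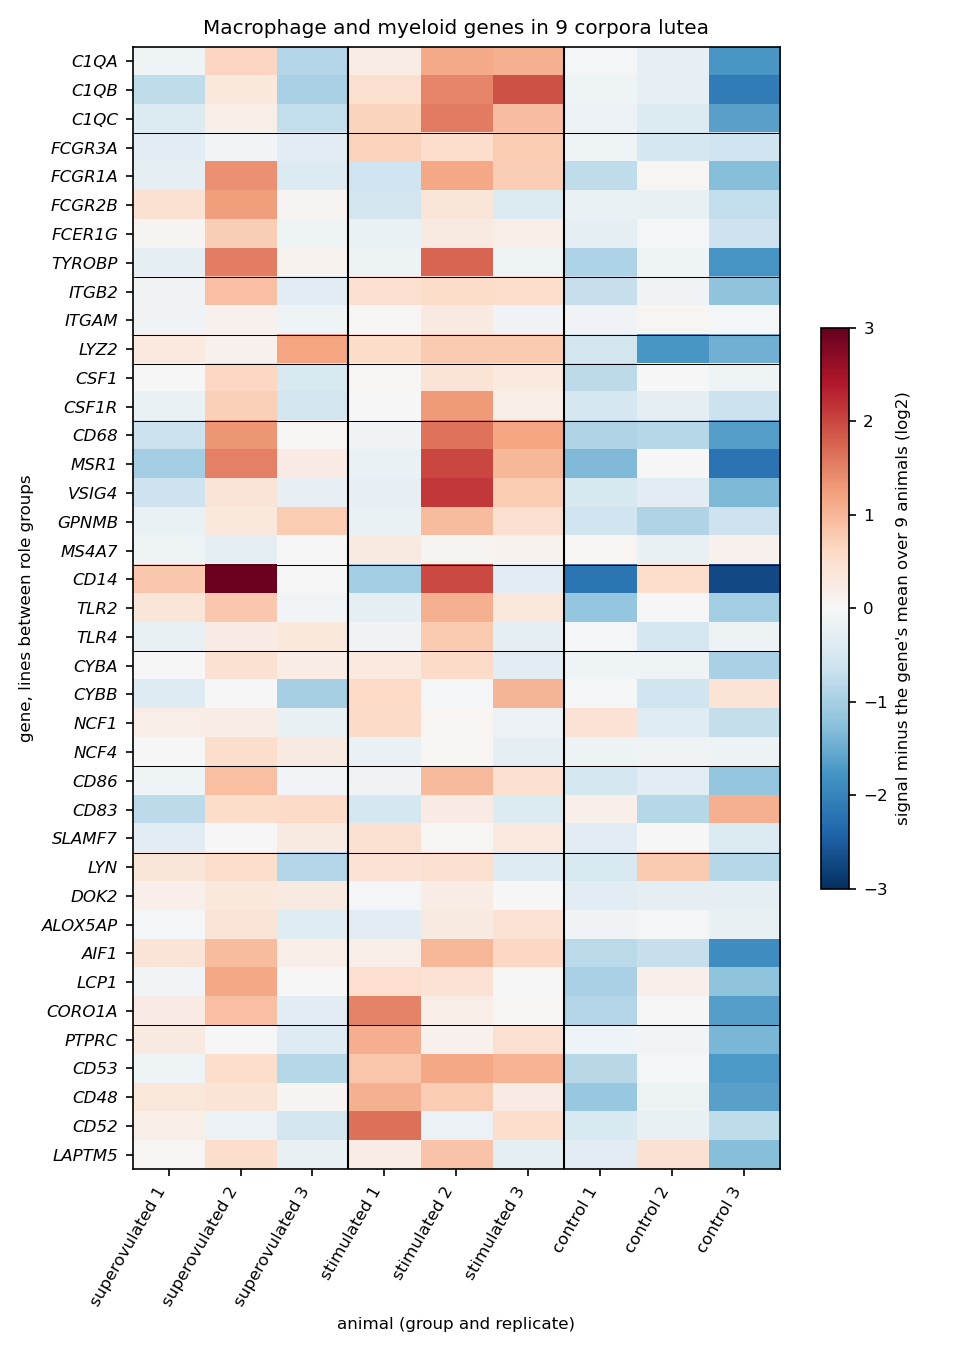
Signal of each of the 39 genes in each animal as its deviation from the gene's mean over the 9 animals (log2 colour scale), with lines between role groups. Control replicate 3 is the lowest animal for 26 genes, and stimulated replicate 2 the highest for 16.

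Stimulated against control asks how the gland differed after the lower dose of eCG. The myeloid genes had higher signal in stimulated animals nearly throughout, with 37 of 39 differences positive and a median of 1.09 on the log2 scale, against -0.0029 over all genes. With the probe set of smallest residual SD for each gene the median was 0.65. At an unadjusted p under 0.05, 21 of the 39 genes (53.8%) were higher and 0 lower, where the background was 4.2% of all genes higher and 3.06% lower. In 20 genes all 3 stimulated animals lay above every control and in 0 below, against 6.5% and 6.35% of all genes. Without control replicate 3 the count at an unadjusted p under 0.05 was 11, with 2.55% of all genes.

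Superovulated against control asks the same of the higher dose. Here 35 of 39 differences were positive, with a median of 0.56 against 0.0107 over all genes. At an unadjusted p under 0.05, 12 genes (30.8%) were higher and 0 lower, where the background was 3.13% higher and 2.13% lower. The groups lay apart upward in 10 genes and downward in 0, against 5.51% and 4.08% of all genes. Both comparisons use the same 3 control animals, so they are not independent of each other. Without control replicate 3, or without superovulated replicate 2, the count of 12 became 5, with 2.52% and 2.85% of all genes, and the median was 0.30 without superovulated replicate 2.

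Superovulated against stimulated compares the treated groups directly. The median difference was -0.19, against 0.0134 over all genes, with 31 of 39 differences negative. At an unadjusted p under 0.05, 6 genes (15.4%) were lower and 1 was higher in superovulated animals, where the background was 4.2% lower and 4.88% higher. In 5 genes all superovulated animals lay below every stimulated one, against 5.77% of all genes, and in 0 above, against 7.16%. Same-numbered animals of these groups deviated together, and with the replicate number as a block 4 genes were higher (6.3% of all genes) and 7 lower (5.74%). Without the block, the 6 lower genes were C1QB, C1QC, FCGR3A, CD53, CYBB and MS4A7, and the higher one was NCF4. The count of lower genes was 2 of the 39 without stimulated replicate 3 or superovulated replicate 1, and 3 without superovulated replicate 3. With all 9 animals, 4.2% of all genes were lower and 4.88% higher. The count of higher genes was 0 without stimulated replicate 1 or 3 or superovulated replicate 2, 2 without superovulated replicate 3 and 3 without stimulated replicate 2. The median ran from -0.44 without superovulated replicate 2 to -0.07 without superovulated replicate 3, and was -0.31, -0.10 and -0.12 without stimulated replicate 1, stimulated replicate 2 and superovulated replicate 1.

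**Figure D2:**
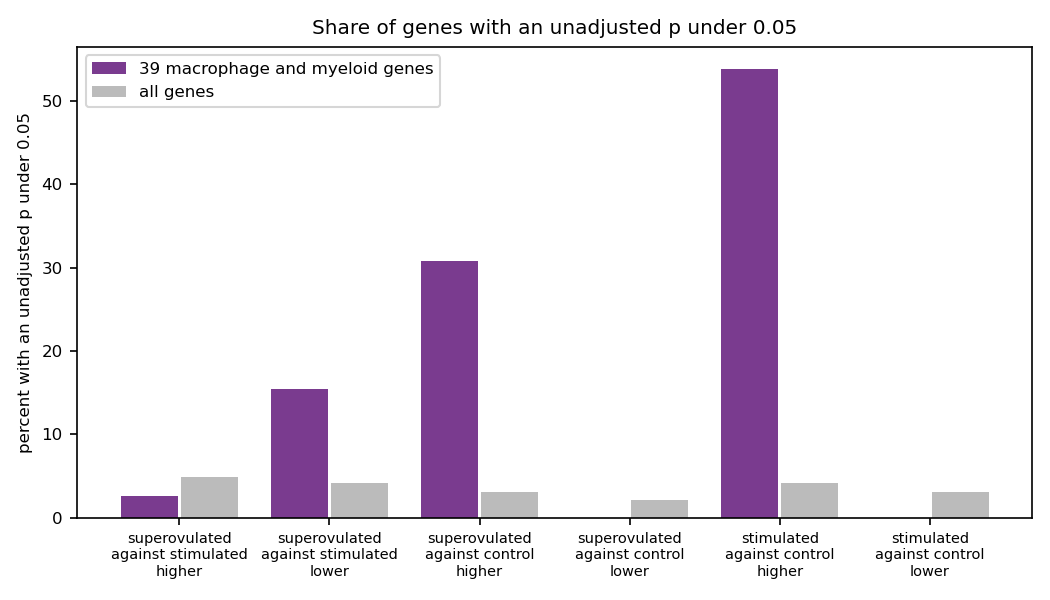
Percent of the 39 macrophage and myeloid genes (purple) and of all 9145 genes (grey) with an unadjusted p under 0.05, by comparison and direction. The bars of the myeloid genes stand at 53.8% and 30.8% for higher signal against control, with all genes at 4.2% and 3.13%.

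The complement protein C1q is built of A, B and C chains and, in other mammals, comes mainly from macrophages. All 3 chains had their highest group mean in stimulated animals. C1QA had 10.05, 10.82 and 9.31 in the 3 superovulated animals, 10.40, 11.33 and 11.26 in the stimulated animals, and 10.13, 9.95 and 8.44 in the controls. C1QB had 6.47, 7.54 and 6.26 in superovulated, 7.72, 8.70 and 9.14 in stimulated, and 7.11, 6.995 and 5.13 in control animals. For C1QC the signals were 5.25, 5.83 and 4.93 in superovulated, 6.34, 7.23 and 6.59 in stimulated, and 5.49, 5.26 and 4.03 in control animals. Every stimulated animal lay above every control for each chain, while the superovulated animals overlapped the controls.

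The stimulated minus control differences were 1.49 for C1QA (SE 0.54, adjusted p = 0.727), 2.11 for C1QB (SE 0.62, adjusted p = 0.646) and 1.79 for C1QC (SE 0.43, adjusted p = 0.530). Superovulated minus control gave 0.56, 0.35 and 0.41 for the A, B and C chains, with adjusted p values of 0.902 to 0.952. Without control replicate 3 these were 0.02, -0.29 and -0.04, and without superovulated replicate 2 they were 0.17, -0.04 and 0.17. Superovulated minus stimulated gave -1.76 for C1QB (SE 0.62, adjusted p = 0.461) and -1.38 for C1QC (SE 0.43, adjusted p = 0.431), with groups that did not overlap. For C1QA it was -0.94 (SE 0.54, adjusted p = 0.620), and superovulated replicate 2, at 10.82, overlapped the stimulated animals. Control replicate 3 was the lowest of all 9 animals for each chain. Without it the stimulated minus control differences were 0.96 for C1QA, 1.47 for C1QB and 1.35 for C1QC.

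**Figure D3:**
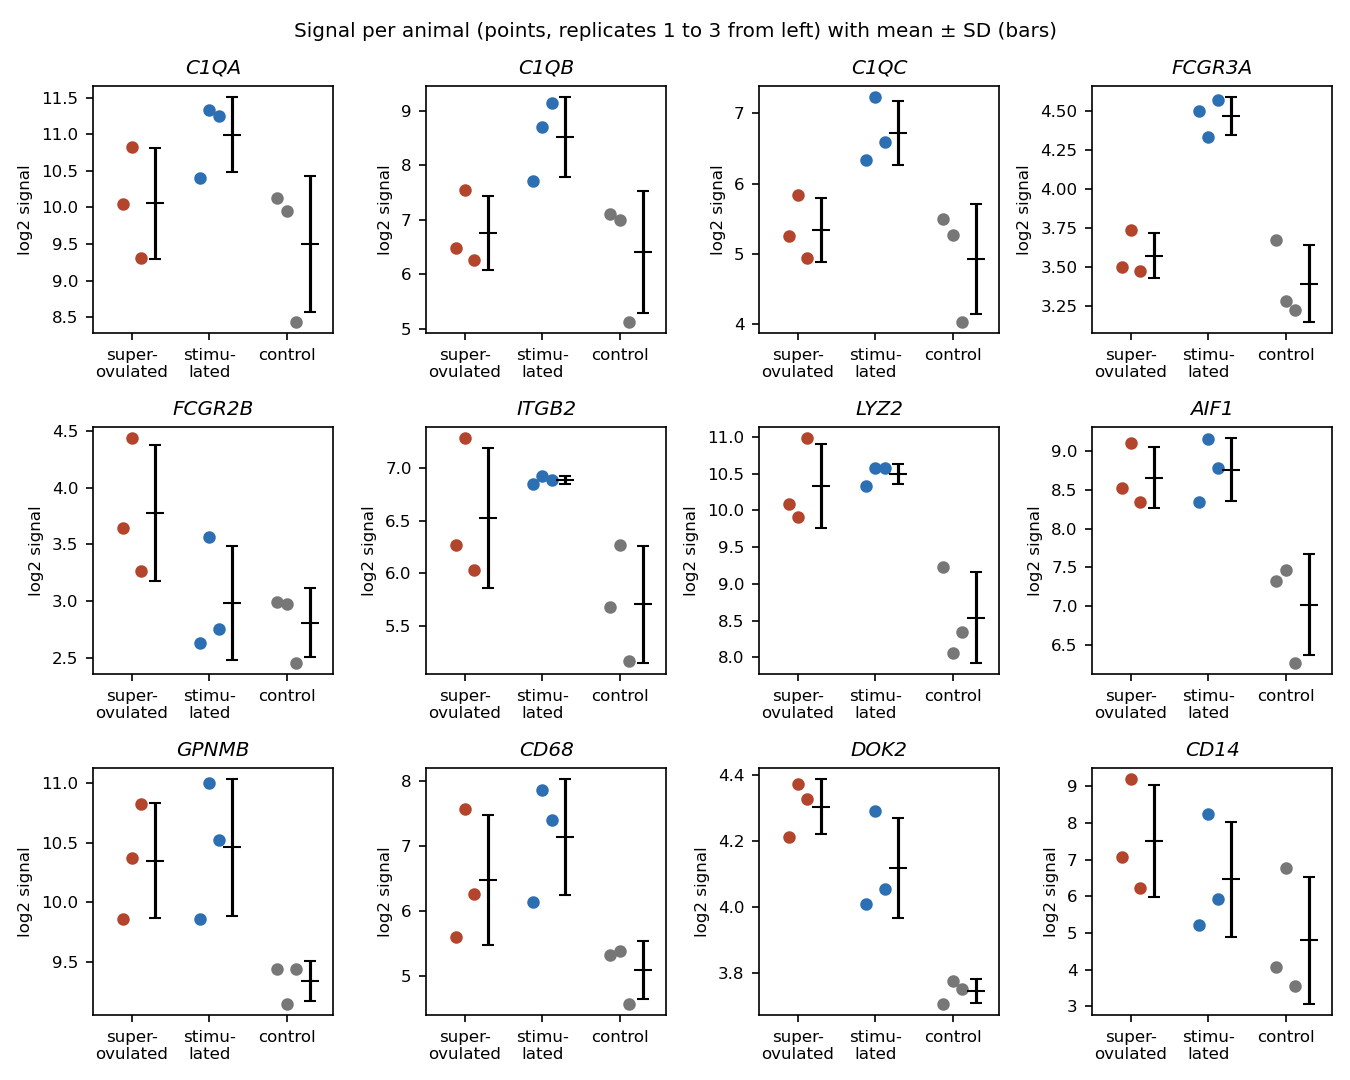
Log2 signal of 12 genes in each animal (points, replicates 1 to 3 from left in each group) with mean and SD of the group (bars, n = 3). The C1q chains and FCGR3A stand highest in stimulated animals, while LYZ2, AIF1, GPNMB, CD68 and DOK2 lie above all controls in both treated groups.

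Fc receptors bind the constant part of antibodies and signal through small adaptors that carry activating motifs. The 5 genes of this group differed among themselves in where they were high. FCGR2B, FCER1G and FCGR3A were among the less bright, with 36.2%, 42.3% and 45.4% of probe sets dimmer. FCGR3A, a low-affinity activating receptor of macrophages and natural killer cells, had 3.50, 3.74 and 3.47 in superovulated, 4.50, 4.33 and 4.57 in stimulated, and 3.67, 3.28 and 3.22 in control animals. The stimulated animals stood apart from both other groups, which overlapped each other. Its stimulated minus control difference was 1.08 (SE 0.14, adjusted p = 0.202), and superovulated minus stimulated was -0.90 (SE 0.14, adjusted p = 0.216). These were the smallest adjusted p values of any myeloid gene in those comparisons.

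FCGR2B, the inhibitory Fc receptor, had the other pattern. Its signals were 3.64, 4.44 and 3.26 in superovulated, 2.63, 3.56 and 2.76 in stimulated, and 2.99, 2.98 and 2.45 in control animals. Superovulated animals lay above all controls (0.97, SE 0.35, adjusted p = 0.801), and stimulated animals overlapped the controls (0.18, SE 0.35, adjusted p = 0.953). Without superovulated replicate 2 the first difference was 0.64. Superovulated minus stimulated was 0.80 (SE 0.35, adjusted p = 0.527).

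FCGR1A, the high-affinity receptor, had 4.08, 5.75 and 3.95 in superovulated, 3.77, 5.53 and 5.11 in stimulated, and 3.60, 4.41 and 3.10 in control animals. FCER1G, the common gamma chain through which FCGR1A and FCGR3A signal, had 3.63, 4.30 and 3.43 in superovulated, 3.36, 3.83 and 3.76 in stimulated, and 3.29, 3.49 and 2.94 in control animals. TYROBP (DAP12), an adaptor of several myeloid receptors, had 6.06, 7.88 and 6.44 in superovulated, 6.19, 8.10 and 6.22 in stimulated, and 5.42, 6.22 and 4.57 in control animals. In all 3 genes replicate 2 was the highest animal of each group, and the groups overlapped. Against control, stimulated animals differed by 1.10 for FCGR1A (SE 0.63), 0.41 for FCER1G (SE 0.25) and 1.43 for TYROBP (SE 0.69), with adjusted p values of 0.794 to 0.856. Superovulated minus control gave 0.89 (SE 0.63), 0.55 (SE 0.25) and 1.39 (SE 0.69) for the same genes, with adjusted p values of 0.810 to 0.859. Without superovulated replicate 2 the last values were 0.31 for FCGR1A, 0.29 for FCER1G and 0.85 for TYROBP, and without stimulated replicate 2 stimulated minus control was 0.80 for TYROBP and 0.74 for FCGR1A.

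Beta-2 integrins pair the common chain ITGB2 (CD18) with an alpha chain and hold leukocytes to vessel walls and to complement-coated particles. ITGB2 had 6.27, 7.29 and 6.03 in superovulated, 6.86, 6.93 and 6.89 in stimulated, and 5.67, 6.27 and 5.16 in control animals. The stimulated animals were close together (SD 0.04) and above all controls, by 1.19 (SE 0.36, adjusted p = 0.687). Superovulated animals differed from controls by 0.83 (SE 0.36, adjusted p = 0.809), with overlap in replicates 1 and 3. ITGAM (CD11b), the alpha chain of complement receptor 3, had 2.38, 2.59 and 2.35 in superovulated, 2.50, 2.73 and 2.37 in stimulated, and 2.37, 2.52 and 2.43 in control animals. This probe set was dim, with 17.7% of probe sets dimmer, and its differences from control, -0.01 and 0.09, were below their SE of 0.11.

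LYZ2, a lysozyme that cleaves bacterial cell walls, had 10.09, 9.91 and 10.98 in superovulated, 10.33, 10.58 and 10.58 in stimulated, and 9.23, 8.05 and 8.34 in control animals. All 6 treated animals lay above all 3 controls. The difference from control was 1.79 in superovulated (SE 0.36, adjusted p = 0.640) and 1.95 in stimulated animals (SE 0.36, adjusted p = 0.392), which differed from each other by -0.17 (SE 0.36). Cattle carry several similar lysozyme genes, and the probe sets of LYZ2 did not behave alike. The other 3 had differences from control of -0.06 to 0.13 in superovulated and -0.13 to 0.20 in stimulated animals, at signals of 1.90 to 3.53. A further probe set, shared by the symbols LYZ2 and LYZ3, had 0.15 and 0.24. The mean of the LYZ2 probe sets gave 0.46 and 0.52. The brightest probe set also held values whose lost decimal mark had to be settled from the other arrays. The next brightest, free of them, had 0.13 and 0.20. Such values also occurred in the probe sets used for C1QA (6 of 9 arrays), LAPTM5 (5), GPNMB (4) and CYBA (2).

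Across the 39 genes, 7 had all 6 treated animals above all 3 controls, against 1.48% of all genes. These were LYZ2, AIF1, CD68, GPNMB, CD48, CD86 and DOK2. A further 13, C1q chains and FCGR3A among them, lay apart from controls in stimulated but not in superovulated animals, against 5.02% of all genes. In superovulated but not in stimulated animals it was 3 (FCGR2B, CYBA and NCF4), against 4.03%. The difference between treated groups was tested for each gene as superovulated minus stimulated, and none passed after adjustment.

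AIF1, an actin-binding protein of activated macrophages, had 8.52, 9.09 and 8.34 in superovulated, 8.34, 9.15 and 8.77 in stimulated, and 7.33, 7.46 and 6.28 in control animals. The lowest treated animal was thus above the highest control. Its differences from control were 1.63 in superovulated and 1.73 in stimulated animals (SE 0.36 each, adjusted p = 0.640 and 0.462).

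Among the scavenger and surface receptors, CD68, a glycoprotein of macrophage lysosomes, had 5.59, 7.56 and 6.27 in superovulated, 6.14, 7.86 and 7.41 in stimulated, and 5.32, 5.38 and 4.57 in control animals. Replicate 2 stood highest in each group. The differences from control were 1.38 (SE 0.59, adjusted p = 0.803) and 2.04 (SE 0.59, adjusted p = 0.646) in superovulated and stimulated animals, and the first was 0.84 without superovulated replicate 2. GPNMB, a membrane glycoprotein of lipid-laden macrophages that other cells make as well, had 9.86, 10.37 and 10.82 in superovulated, 9.86, 10.998 and 10.53 in stimulated, and 9.44, 9.15 and 9.44 in control animals. Both other probe sets of GPNMB gave similar differences from control, 1.15 and 1.11 in superovulated and 1.14 and 1.21 in stimulated animals, beside 1.01 (SE 0.32, adjusted p = 0.785) and 1.12 (SE 0.32, adjusted p = 0.646) for the one used.

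MSR1, scavenger receptor A for modified lipoproteins, had 5.15, 7.70 and 6.43 in superovulated, 5.98, 8.18 and 7.18 in stimulated, and 4.87, 6.18 and 3.97 in control animals. VSIG4, a complement receptor of resident macrophages, had 3.85, 4.86 and 4.21 in superovulated, 4.21, 6.57 and 5.23 in stimulated, and 3.99, 4.13 and 3.11 in control animals. The spread between animals of one group was large in both, with SDs of up to 1.27 for MSR1 and 1.18 for VSIG4. Stimulated minus control was 2.11 for MSR1 (SE 0.84, adjusted p = 0.774) and 1.60 for VSIG4 (SE 0.58, adjusted p = 0.728), and it was 0.98 for VSIG4 without stimulated replicate 2. The mean of the 3 MSR1 probe sets gave 0.91, and the other probe sets alone 0.01 and 0.61. MS4A7, a tetraspanning membrane protein of macrophages, had 2.83, 2.69 and 2.97 in superovulated, 3.23, 3.05 and 3.07 in stimulated, and 3.02, 2.75 and 3.09 in control animals. Its superovulated minus stimulated difference was -0.29 (SE 0.12, adjusted p = 0.503).

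**Figure D4:**
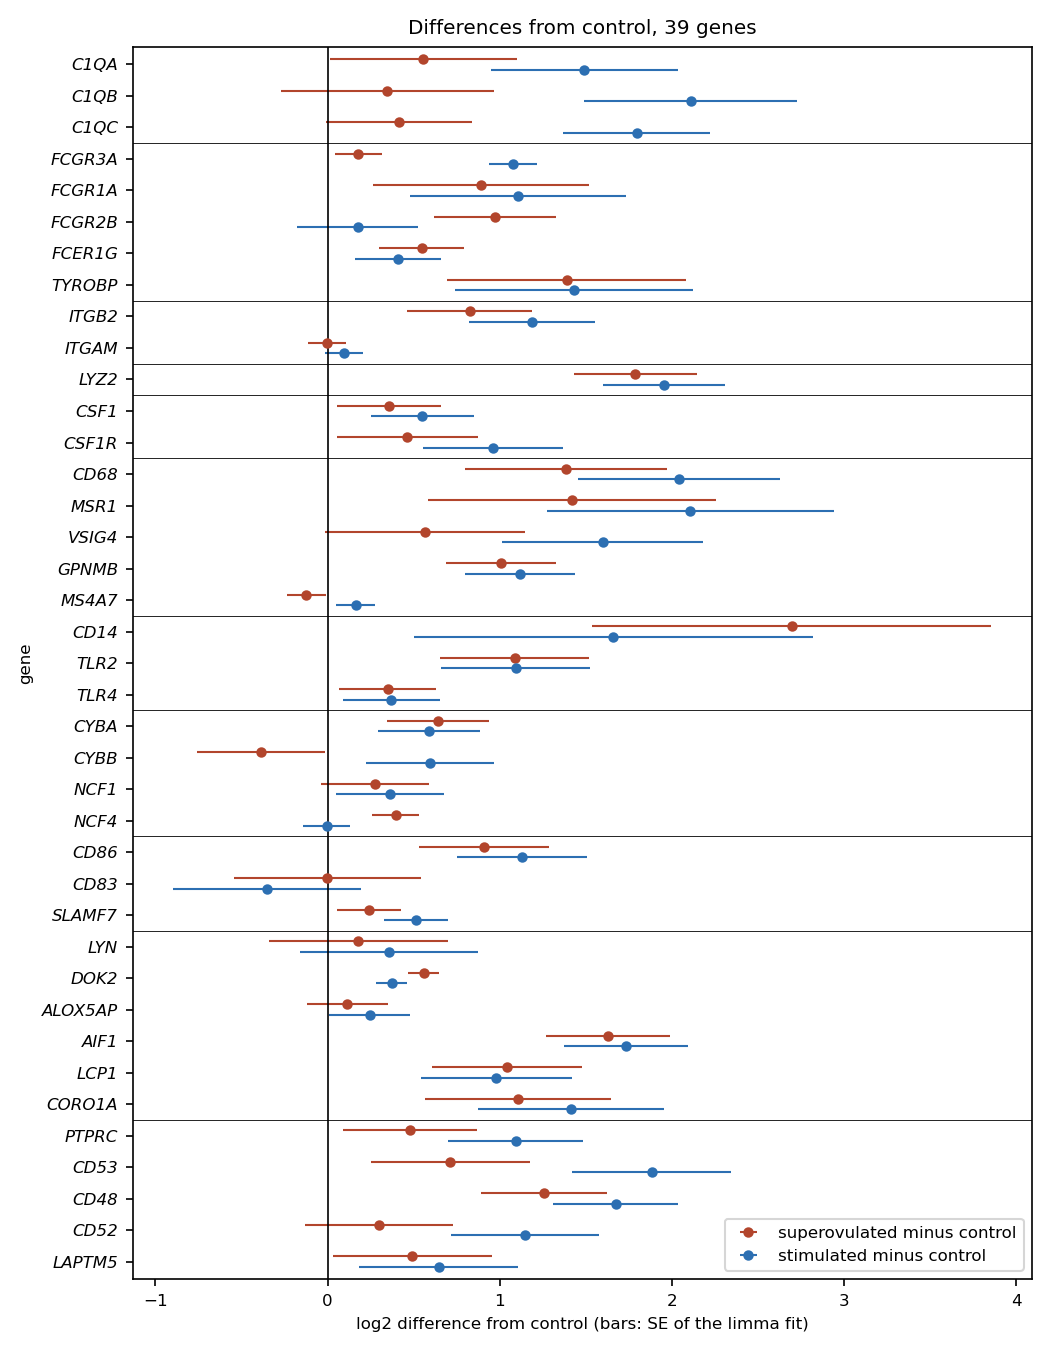
Difference of each gene from control on the log2 scale in superovulated (red) and stimulated (blue) animals, with the SE of the limma fit, ordered by role. Differences run from -0.39 for CYBB to 2.70 for CD14 in superovulated animals and from -0.35 for CD83 to 2.11 in stimulated animals.

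Growth factor signalling was represented by CSF1 and its receptor. CSF1R, the receptor that maintains macrophages, had 4.17, 5.09 and 3.80 in superovulated, 4.37, 5.65 and 4.54 in stimulated, and 3.86, 4.09 and 3.72 in control animals. Stimulated animals lay above all controls by 0.96 (SE 0.41, adjusted p = 0.779), or 0.56 without stimulated replicate 2. Superovulated animals overlapped the controls at 0.46 (SE 0.41), or 0.10 without superovulated replicate 2. CSF1 itself differed from control by 0.36 and 0.55 (SE 0.30 each) in superovulated and stimulated animals, and its dimmer probe set by 0.03 and 0.00.

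Of the microbial pattern receptors, CD14 had the largest difference from control of the 39 genes in superovulated animals. CD14, the lipopolysaccharide co-receptor, had 7.07, 9.19 and 6.23 in superovulated, 5.22, 8.23 and 5.93 in stimulated, and 4.07, 6.78 and 3.56 in control animals. It varied most between animals of a group (SD 1.53, 1.58 and 1.73), and replicate 2 was the highest in each. Superovulated minus control was 2.70 (SE 1.16, adjusted p = 0.803), with 0.78 for its other probe set and 1.85 without superovulated replicate 2. Stimulated minus control was 1.66 (SE 1.16, adjusted p = 0.876), with 0.28 for the other probe set and 0.77 without stimulated replicate 2, and these groups overlapped. TLR2, a receptor for bacterial lipoproteins, had 7.14, 7.59 and 6.70 in superovulated, 6.49, 7.84 and 7.12 in stimulated, and 5.62, 6.80 and 5.76 in control animals, a difference of 1.09 (SE 0.43) for either treated group. TLR4, the lipopolysaccharide receptor, had 0.35 and 0.37 (SE 0.28 each).

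The phagocyte NADPH oxidase makes superoxide from a membrane core of CYBA and CYBB and cytosolic subunits that include NCF1 and NCF4. Its genes did not share a pattern. CYBB had 5.93, 6.30 and 5.32 in superovulated, 6.90, 6.27 and 7.32 in stimulated, and 6.27, 5.71 and 6.73 in control animals, with -0.98 for superovulated minus stimulated (SE 0.37, adjusted p = 0.483) and -0.83 for its other probe set. NCF4 had 4.21, 4.73 and 4.47 in superovulated, 4.01, 4.25 and 3.94 in stimulated, and 4.05, 4.11 and 4.06 in control animals. Superovulated minus stimulated was 0.40 (SE 0.14, adjusted p = 0.451) for NCF4, the opposite sign to CYBB. CYBA differed from control by 0.64 and 0.59 (SE 0.30 each), and NCF1 by 0.28 and 0.36 (SE 0.31 each) in superovulated and stimulated animals.

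Of the costimulatory genes, CD86, a ligand of the T cell receptor CD28, had 4.09, 5.12 and 4.15 in superovulated, 4.12, 5.19 and 4.71 in stimulated, and 3.69, 3.89 and 3.05 in control animals. It differed from control by 0.91 and 1.13 (SE 0.38 each, adjusted p = 0.802 and 0.706), and the first was 0.58 without superovulated replicate 2. SLAMF7, a surface receptor shared by macrophages, natural killer and plasma cells, had 2.73, 3.07 and 3.32 in superovulated, 3.52, 3.08 and 3.33 in stimulated, and 2.74, 3.05 and 2.60 in control animals. CD83, a marker of mature dendritic cells, had 6.67, 8.03 and 8.04 in superovulated, 6.95, 7.70 and 7.05 in stimulated, and 7.61, 6.60 and 8.53 in control animals. With the probe sets used, CD83 was the gene for which control replicate 3 was the highest animal. Its differences from control were -0.00 and -0.35 (SE 0.54 each). The other CD83 probe set had 0.99 and -0.12 (SE 0.92 each) in superovulated and stimulated animals, and was highest in superovulated replicate 3.

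The signalling and cytoskeletal genes differed in how close animals of a group lay to each other. DOK2, an adaptor that restrains tyrosine kinase signalling in blood cells, had 4.21, 4.37 and 4.33 in superovulated, 4.01, 4.29 and 4.05 in stimulated, and 3.71, 3.78 and 3.75 in control animals. These differences were small, 0.56 and 0.37 (SE 0.09 each, adjusted p = 0.551 and 0.530), and the other DOK2 probe sets had values between -0.06 and 0.10. LCP1, the actin bundler of leukocytes, had 4.81, 6.06 and 4.90 in superovulated, 5.39, 5.32 and 4.86 in stimulated, and 3.91, 5.05 and 3.69 in control animals. CORO1A, another actin regulator of leukocytes, had 6.82, 7.48 and 6.23 in superovulated, 8.06, 6.77 and 6.62 in stimulated, and 5.69, 6.58 and 4.93 in control animals. LCP1 differed from control by 1.04 and 0.98 (SE 0.44 each), and CORO1A by 1.11 and 1.41 (SE 0.54 each), in superovulated and stimulated animals. Without superovulated replicate 2 the first LCP1 value was 0.64. The kinase LYN and ALOX5AP, which helps make leukotrienes, differed from control by 0.11 to 0.36, less than their SE for LYN.

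Pan-leukocyte genes, which lymphocytes share with myeloid cells, were highest in stimulated animals. CD53, a tetraspanin of leukocytes, had 5.49, 6.16 and 4.76 in superovulated, 6.46, 6.79 and 6.66 in stimulated, and 4.78, 5.59 and 3.90 in control animals. The stimulated group stood apart from both others, by 1.88 from control (SE 0.46, adjusted p = 0.540) and with -1.17 for superovulated minus stimulated (SE 0.46, adjusted p = 0.493). CD48, a surface ligand of leukocytes, had 6.61, 6.69 and 6.36 in superovulated, 7.33, 7.04 and 6.53 in stimulated, and 5.14, 6.11 and 4.63 in control animals. Its differences from control were 1.26 and 1.67 (SE 0.36 each, adjusted p = 0.761 and 0.517). PTPRC (CD45), the phosphatase of all leukocytes, had 7.67, 7.40 and 7.03 in superovulated, 8.51, 7.54 and 7.89 in stimulated, and 7.29, 7.32 and 6.05 in control animals. CD52, a small glycoprotein of lymphocytes and monocytes, had 4.86, 4.50 and 4.11 in superovulated, 6.32, 4.50 and 5.19 in stimulated, and 4.21, 4.44 and 3.91 in control animals. Stimulated minus control was 1.09 for PTPRC (SE 0.39), 0.67 without control replicate 3, and 1.15 for CD52 (SE 0.43), 0.65 without stimulated replicate 1. The mean of the PTPRC probe sets gave 0.46. LAPTM5, a lysosomal membrane protein of leukocytes, differed from control by 0.49 and 0.65 (SE 0.46 each).

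Single animals stood out across many genes. Stimulated replicate 2 had the highest signal of all 9 animals in 16 genes, superovulated replicate 2 in 9 and stimulated replicate 1 in 7. The genes led by stimulated replicate 1 included CD52, CORO1A, PTPRC, CD48 and SLAMF7. Control replicate 3 had the lowest signal in 26 genes. The median deviation of the 39 genes from their own means was -0.10, 0.52 and -0.13 in the superovulated animals, 0.20, 0.57 and 0.30 in the stimulated animals, and -0.46, -0.16 and -1.03 in the controls. All stimulated animals were thus above all controls in this median, and so were all superovulated animals, with control replicate 2 close to superovulated replicate 3.

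Genes of the same cells outside the 39 had smaller median differences from control. Of 27 other measured myeloid genes 0 passed after adjustment. At the unadjusted threshold of 0.05, stimulated animals had 6 higher and 0 lower against control, and superovulated animals had 2 higher and 1 lower. The shares over all genes were 4.2% and 3.06% for stimulated and 3.13% and 2.13% for superovulated animals. Their median differences were 0.23 in stimulated and 0.27 in superovulated animals. CD36, a fatty acid and lipoprotein receptor of macrophages, endothelium and other cells, had 8.79, 9.26 and 9.31 in superovulated, 9.56, 10.13 and 9.96 in stimulated, and 8.83, 9.26 and 8.85 in control animals. Like C1QB and C1QC it stood apart in stimulated animals from both other groups, with 0.90 against control (SE 0.20, adjusted p = 0.523). The kinase FGR differed from control by 0.48 and 0.23 (SE 0.14 each), and RAC2, a GTPase of the leukocyte oxidase, by 0.43 and 0.60 (SE 0.19 each), in superovulated and stimulated animals.

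Markers of other cell types varied alongside some of these genes. The 20 measured T and NK cell markers had mean signals of 3.02 to 3.19 in superovulated, 3.10 to 3.76 in stimulated and 2.92 to 3.20 in control animals, with stimulated replicate 1 the highest. CD3G was 4.42 in that animal and 2.79 to 3.76 in the other 8. At an unadjusted p under 0.05, 3 of the 20 were higher and 0 lower in stimulated animals than in controls. Over all genes the shares were 4.2% and 3.06%. The 3 were NKG7, GNLY and CD8A, the last named after its values were seen. NKG7, a granule protein of NK and cytotoxic T cells, had 3.23, 3.72 and 3.23 in superovulated, 3.80, 3.83 and 3.60 in stimulated, and 2.98, 3.33 and 2.81 in control animals, so all stimulated animals lay above all controls (0.70, SE 0.18, adjusted p = 0.567). GNLY, a granule protein that lyses microbes, differed from control by 1.83 in stimulated and 0.09 in superovulated animals, and CD8A, a co-receptor of cytotoxic T cells, by 1.23 and 0.19. CD5, with the list's smallest F test p, was instead highest in superovulated animals (2.48, 2.43 and 2.51). It had 2.35, 2.30 and 2.30 in stimulated and 2.23, 2.27 and 2.25 in control animals. Superovulated minus control was 0.22 (SE 0.05, adjusted p = 0.721), and superovulated minus stimulated was 0.16 (SE 0.05, adjusted p = 0.458). In superovulated against control CD5 alone of the 20 passed the unadjusted threshold, 1 higher and 0 lower, against 3.13% and 2.13% of all genes. Its probe set was dim, with 13.9% of probe sets dimmer. FCGR3A and the pan-leukocyte genes are shared with T and NK cells, whose part in their values was not tested. Endothelial markers (11 measured) averaged 7.42 to 7.88 in superovulated, 7.63 to 8.14 in stimulated and 7.17 to 8.09 in control animals, with stimulated and control replicates 2 highest, and their part was not tested. PF4, a platelet chemokine, was 9.002 in superovulated replicate 2 and 3.65 to 7.10 in the other animals.

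The 13 neutrophil markers measured averaged 4.17 to 4.47 in superovulated, 3.45 to 3.78 in stimulated and 4.06 to 4.47 in control animals. S100A9, a calprotectin subunit, had 9.54, 10.32 and 9.44 in superovulated, 6.30, 5.00 and 5.24 in stimulated, and 7.81, 9.27 and 10.17 in control animals, while MPO, the granule peroxidase, stayed at 2.42 to 2.81 in all 9. The list's median difference was -0.10 in stimulated against control. At an unadjusted p under 0.05, 3 markers were lower and 1 higher, against 3.06% and 4.2% of all genes. The lower ones were S100A9, S100A8 and MMP9, and the higher was ELANE, a granule protease. The averages thus rest on a few markers such as S100A9. S100A8 differed from control by -2.39 in stimulated and 0.06 in superovulated animals (SE 0.54 each). MMP9 lay below all controls in both treated groups, with -1.42 in stimulated and -1.05 in superovulated animals (SE 0.21 each). In superovulated against control it was the only marker at this threshold, 1 lower and 0 higher, against 2.13% and 3.13%. The defining neutrophil markers CSF3R and CXCR2 were not analysed here. B cell markers CD79A and MS4A1 lay between 2.33 and 3.14 in all animals, as did BLK, MZB1 and IGLL1 of the same list. JCHAIN, also of the B and plasma cell list, was brighter, at 7.50 to 8.90. Luteal cell markers (9 measured) averaged 12.21 to 12.57 in superovulated, 12.27 to 12.62 in stimulated and 12.32 to 12.70 in control animals. As a sign of RNA quality, the 3' minus 5' signal was taken for 6 control transcripts. The transcript labelled Cyph, named after its values were seen, alone had all treated animals above all controls. Its values were 0.23 to 0.31 in superovulated, 0.24 to 0.32 in stimulated and 0.14 to 0.18 in control animals. For those labelled GST and eIF-4E all superovulated animals, and for gapd all stimulated animals, lay above all controls. The part of RNA quality in the differences was not tested.

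**Figure D5:**
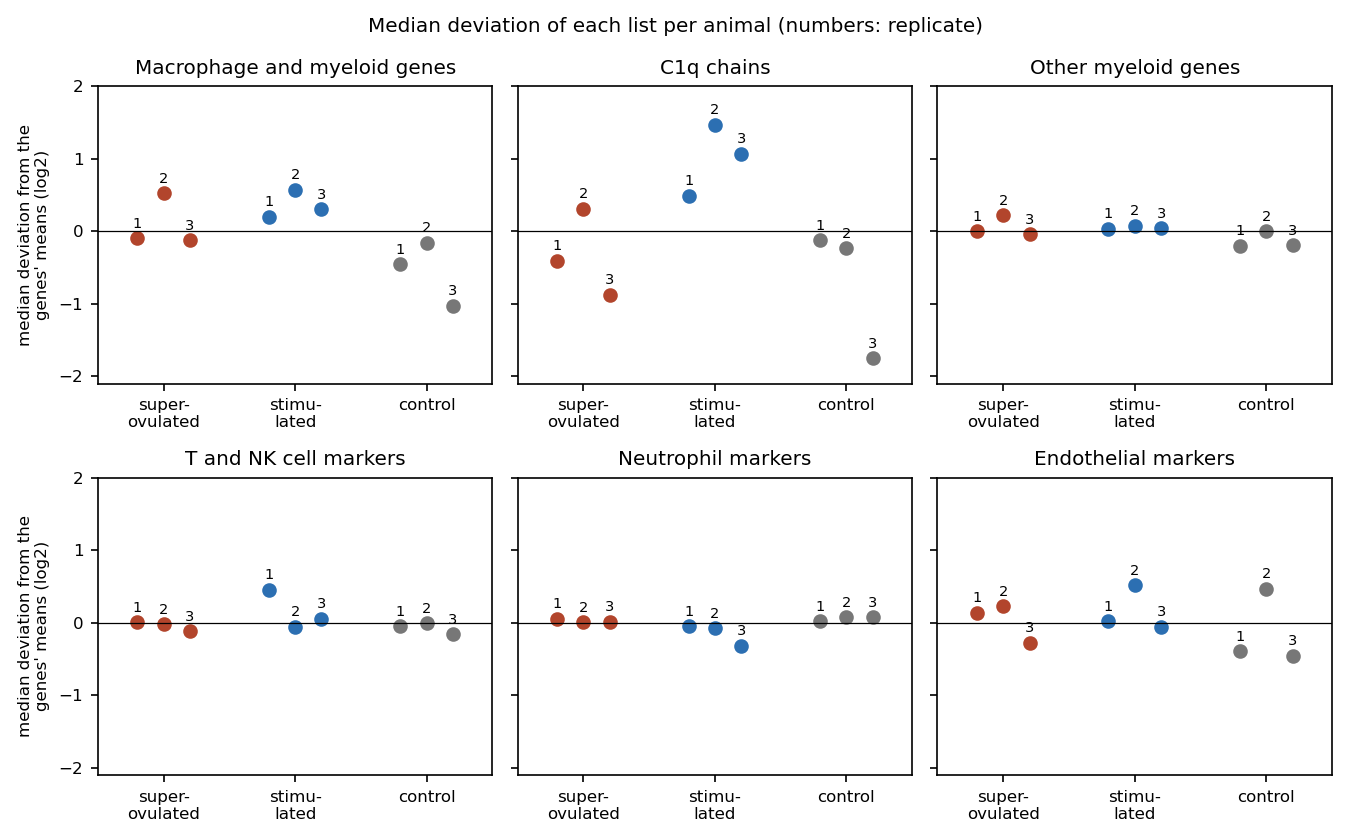
Median deviation of each list's genes from their own means over the 9 animals (log2), per animal and numbered by replicate. The macrophage and myeloid genes lie at -1.03 in control replicate 3 and at 0.57 in stimulated replicate 2, and T and NK cell markers peak at 0.45 in stimulated replicate 1.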

How the data were processed

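Total RNA of each gland was labelled as biotinylated cRNA for an Affymetrix array, per the labels' protocols. The deposited table holds 24128 probe sets on 9 arrays as digit runs without a decimal mark, in no standard unit (another, unnamed scale). How it was summarised and normalised is not given in the sources used here. The mark was restored under a limit of 16 on the log2 scale. Runs that start with 1 and could be read as 1.x or 1x.x (15.5% of cells) were settled by the other arrays, or by their spread where all 9 were open. Probe sets left undecided (42, plus 5 with a margin under 1) and 112 controls were left out. No measured myeloid gene was among them, and the recovered values run from 0.85 to 15.36. Array medians lie between 4.19 and 4.26, and no further normalisation was applied.

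limma (version 3.58.1, R 4.3.3) was fitted with 1 mean per group (6 residual degrees of freedom) and 2-sided tests, and was checked on simulated data. Arrays have no read depth, and their small number sets the precision. Genes are those named in the probe table by 1 symbol. RefSeq's table of the Bos indicus assembly lists 34 of the 39 symbols, and no coordinates were taken from it. The members and lists were chosen with earlier results of these data known. Values in every animal are given for C1q, Fc receptor, integrin and lysozyme genes and those with an unadjusted p under 0.05 in a comparison or the F test, and CD83 was added after its values were seen. Context lists are named by defining markers and the up to 3 genes of smallest F test p. The labels number the replicates alike in each group without saying that a number marks a shared day or batch. Same-numbered superovulated and stimulated animals deviated together (correlations of 0.152 to 0.377). Alternatives covered normalisation, probe set choice, dim probe sets, the fit and each array left out.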

Additional observations from a re-analysis of the deposited data

How the results depend on the processing

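Over 18 other settings, no myeloid gene had an adjusted p under 0.05 in any comparison, the smallest being 0.109 for FCGR3A in stimulated against control. Leaving out each animal in turn changed the counts of the 39 genes at an unadjusted p under 0.05. Higher genes numbered 11 (without control replicate 3) to 24 in stimulated against control and 5 to 16 in superovulated against control. In superovulated against stimulated there were 0 to 3 higher and 2 to 6 lower genes. With all 9 animals the shares of all genes were, in the same order, 4.2%, 3.13%, 4.88% and 4.2%. With each animal left out in turn, the median differences of the 3 comparisons ran from 0.80 to 1.27, 0.30 to 0.76 and -0.44 to -0.07. Among the other settings, the count of higher genes in superovulated against stimulated was 2 under quantile normalisation or eBayes with trend and robust, 3 with array medians subtracted and 4 with a replicate block. With the replicate block, superovulated against control had 20 higher genes, against 5.24% of all genes. The deviations of same-numbered animals had correlations of -0.0291 to 0.377 over 9 pairs, 7 of them over 0.1. Every pair of superovulated and stimulated animals was over 0.1, but not every pair with a control, so the numbers were not taken as pairing treated animals with controls. With the probe set of smallest residual SD in place of the brightest, the median of stimulated against control was 0.65. LYZ2 then had -0.13 in stimulated and -0.0217 in superovulated animals, and DOK2 -0.0560 in superovulated animals. In stimulated animals MSR1 had 0.01, DOK2 0.00 and PTPRC 0.05 under it. All other signs of the 40 differences with an unadjusted p under 0.05 were kept under these settings. Of 53 further differences followed, 20 had the other sign under at least 1 setting. Signal over background is not known here, which limits what can be said of dim probe sets such as that of ITGAM.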
